A study of Mus musculus with 12 samples.

Results

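The genes described here were 6 Kruppel-like factors, Klf2, Klf3, Klf6, Klf7, Klf10 and Klf13, the egress receptor gene S1pr1 and its antagonist Cd69. They were picked by name from the 45669 rows of a table of read counts per gene, and all 8 had a row of their own. They were picked with results of these data known, and which values led to the choice is not recorded. Differences between genotypes and between assays are therefore given as descriptions, and p-values beside them come from fits over all tested genes.

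The cells were CD4+ T cells purified from lymph nodes of 12-week-old C57BL6 mice by bead depletion of other cells. One group was wild type (WT/WT). The other was homozygous for Rasgrp1 Anaef, an inherited point-mutant allele of a Ras exchange factor that acts downstream of the T cell receptor, so that every cell of those mice carried it. No agent was given to the cells for the total RNA libraries, and the cells for the footprint libraries had cycloheximide for 1 minute before lysis. There were 4 total RNA libraries of WT, numbered 1 to 4, and 4 of Anaef, numbered 5 to 8. Ribosome-protected fragments (RPF), also called footprints, are pieces of mRNA left undigested inside a ribosome, and they were sequenced from pools 1B and 2B of WT cells and pools 3B and 4B of Anaef cells. A pool joined cells of 2 samples, and the sources used here do not say which. p-values measure the spread between these libraries, which may be partly technical.

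Kruppel-like factors bind GC-rich and CACC-box DNA through zinc fingers at the C-terminal end of the protein. In resting T cells KLF2 is kept on by FOXO1, is lost on T cell receptor signalling, and drives transcription of S1pr1. S1PR1 on the surface lets T cells follow sphingosine 1-phosphate out of the lymph node, and CD69, induced early in activation, binds S1PR1 and pulls it from the surface, so that the cell stays. KLF3 is mainly a repressor that recruits CtBP, KLF10 is an early target of TGF-beta signalling, KLF13 was first described as an activator of Ccl5 in T cells, and KLF6 and KLF7 form a closely related pair.

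The first 60 coding bases of 4 of the genes are shown with the 6 bases before them, because the results below turn on how many ribosome fragments each mRNA gave for its RNA reads. They are from the GENCODE M21 transcript with the longest coding sequence, 5′ to 3′, and the capitals mark the start codon. Counted per gene, without regard to length, Klf2 and Klf10 gave many fragments for their RNA reads, and Klf3 and Klf7 gave few.
Klf2: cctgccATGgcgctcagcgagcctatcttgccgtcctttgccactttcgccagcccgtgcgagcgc
Klf10: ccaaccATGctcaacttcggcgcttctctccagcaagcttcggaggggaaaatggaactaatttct
Klf3: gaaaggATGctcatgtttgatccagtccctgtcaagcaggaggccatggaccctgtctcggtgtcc
Klf7: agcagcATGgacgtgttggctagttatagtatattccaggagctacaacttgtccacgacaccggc

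All 4 had a purine 3 bases before the start codon, as did 7 of the 8 genes (Klf6 was the exception) and 84.12% of 19514 mouse coding genes. A G right after the start codon stood in 5 of the 8 (Klf2, Klf7, Klf13, S1pr1 and Cd69) and in 49.16% of all coding genes. Klf2, with the most fragments per RNA read, and Klf7, with the fewest, both had the purine and the G. The first 60 coding bases were 65% G or C in Klf2, 56.67% in Klf3 and 48.33% in both Klf10 and Klf7. Whether this stretch bears on the number of fragments was not tested.

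Klf6 and Klf7 share the longest run of identical coding sequence among the 8, which bears on whether short fragments can be placed on one gene. The 74 bases around it lie in the zinc-finger end, and the capitals mark the 12 bases that differ.
Klf6: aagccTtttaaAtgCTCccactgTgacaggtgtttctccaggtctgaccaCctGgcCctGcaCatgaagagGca
Klf7: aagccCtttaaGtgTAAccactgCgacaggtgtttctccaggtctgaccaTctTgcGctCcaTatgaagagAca

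The unbroken shared run was 26 bases long. Over a window of 240 bases in the zinc-finger end the pair was 81.25% identical, against 58.75% to 72.08% for other pairs of Klf genes. Klf10 with Klf13 (52.92%) is left out of that range. Their window lay 0 and 30 bases from the coding ends, against 84 and 114 where each was matched to Klf6, so it ran past the zinc-finger stretch. No run of 28 coding bases, about the length of a footprint, was shared by any of the 8 with an annotated transcript of another gene. Of the 50-base runs, the length of the total RNA reads, Klf3 shared 1 (with Gm44888) and Klf13 shared 11 (0.1733% of its runs, with Tanc2). Klf7 overlaps the lincRNA gene Gm26649 on the opposite strand over 3196 of its 8131 exon bases, and Klf3 overlaps Gm20033 over 404 of 11243. The sources used here do not say whether the counting used strand, so reads in those stretches cannot be told apart from reads of the partner.

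In GRCm38 coordinates, Klf2 (ENSMUSG00000055148) lies at chr8:72319033-72321656 on the plus strand, with 3 exons. Klf3 (ENSMUSG00000029178) lies at chr5:64803388-64832901 (plus, 6 exons) and Klf6 (ENSMUSG00000000078) at chr13:5861482-5870394 (plus, 4 exons). Klf7 (ENSMUSG00000025959) lies at chr1:64029447-64122282, Klf10 (ENSMUSG00000037465) at chr15:38291463-38300706 and Klf13 (ENSMUSG00000052040) at chr7:63886351-63938915, all on the minus strand. S1pr1 (ENSMUSG00000045092) lies at chr3:115710433-115715072 and Cd69 (ENSMUSG00000030156) at chr6:129267325-129275436, also on the minus strand. The values below are read counts per gene, taken here to cover all of a gene's exons, which the sources used here do not state. CPM are read counts brought to one common total by the library's TMM-scaled size.

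The total RNA libraries held 15326842 to 40046317 counts in WT and 18580747 to 39467754 in Anaef. The footprint pools were shallower, with 4044330 to 7009342 counts in WT and 2868943 to 3464868 in Anaef. Over 8276 genes the first 2 principal components of total RNA held 27.4% and 25.5% of the variance. WT replicate 3, the shallowest library, lay apart from the other WT libraries on both, and Anaef replicate 6 lay farthest out on the second. Rasgrp1 itself had 453 to 610 CPM in WT and 460 to 683 in Anaef total RNA, and 150 to 173 in WT and 104 to 124 in Anaef RPF, which a point mutation does not have to change. The 10 fixed CD4 T cell markers summed to 3787 to 4120 CPM in WT and 4262 to 6134 in Anaef total RNA. Cd8a was at most 1.92 CPM there, while Cd8b1 had 6.46 to 11.6 CPM in WT and 4.65 to 14.8 in Anaef. The 10 B cell markers summed to 33.9 to 67.5 CPM in WT and 11.7 to 35.0 in Anaef total RNA, and to 50.7 to 92.3 and 22.4 to 40.1 in RPF. The 6 plasma cell markers summed to 86.9 to 235 and 67.6 to 98.1 CPM in total RNA and to 854 to 1712 and 186 to 539 in RPF. The CD8 T and NK list gave 24.9 to 33.3 and 17.4 to 29.0 CPM, the myeloid and dendritic list 27.6 to 32.5 and 16.7 to 22.1, and the endothelial and stromal list 151 to 164 and 152 to 222, in WT and Anaef total RNA. Nearly all of that last sum was Pecam1 (157 CPM on average), which T cells also express, and Vwf (13.6 CPM), and the other 8 markers had under 0.5 CPM each. Cdh5 was at 0 in all Anaef total RNA libraries and reached 0.633 CPM in WT. In bulk samples fewer cells of a type and less RNA per cell cannot be told apart.

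In total RNA, no member differed between the genotypes beyond the spread of the libraries. Of 17876 genes tested 0.0224% passed at an adjusted p of 0.05 and none of the 8 did. WT and Anaef libraries overlapped for all 8 members, where 3.59% of genes did not overlap (2.01% with Anaef all lower and 1.58% all higher). None of the 8 passed without WT replicate 3 or without Anaef replicate 6 either.

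Klf2, the regulator of the egress programme, had a low level in the total RNA libraries. Its total RNA was 7.81, 13.3, 17.5 and 9.90 CPM in WT replicates 1 to 4 and 9.30, 12.6, 28.05 and 11.5 CPM in Anaef replicates 5 to 8. Anaef replicate 7 was the highest of all 8 libraries, and the other 3 Anaef libraries lay within the WT range. The log2 fold change was 0.35 with a standard error (SE) of 0.39 (adjusted p = 0.979, edgeR quasi-likelihood test), and it was -0.12 without Anaef replicate 7. The B cell marker sum was also highest among the Anaef libraries in replicate 7, at 35.0 CPM, and highest among the WT libraries in replicate 3, at 67.5 CPM, which had the most Klf2 of WT. WT replicate 1, with the second highest sum at 56.5 CPM, had the least Klf2 of all 8 libraries. Klf2 is also expressed outside T cells, and the part of other cells in its level was not tested.

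S1pr1, the receptor for sphingosine 1-phosphate, was among the stronger transcripts. Its total RNA was 271, 303, 343 and 270.02 CPM in WT and 318, 249, 239 and 284 CPM in Anaef. The highest library was WT replicate 3, the lowest Anaef replicate 7, and the groups overlapped. Anaef over WT gave a log2 fold change of -0.12 (SE 0.14, 95% interval -0.44 to 0.20, adjusted p = 0.984, edgeR).

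Cd69, the activation marker that removes S1PR1 from the surface, had 62.2, 73.6, 41.9 and 41.5 CPM in WT and 44.5, 72.9, 60.1 and 65.0 CPM in Anaef total RNA. WT replicates 1 and 2 were higher than 3 and 4, and Anaef lay across the same range. Its log2 fold change was 0.14 (SE 0.23, 95% interval -0.37 to 0.66, adjusted p = 0.985, edgeR). The 10 markers of activated T cells, which include Nr4a1, Egr1 and Il2ra, summed to 318 to 367 CPM in WT and 307 to 412 in Anaef total RNA, with 0 of the 10 passing.

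**Figure D1:**
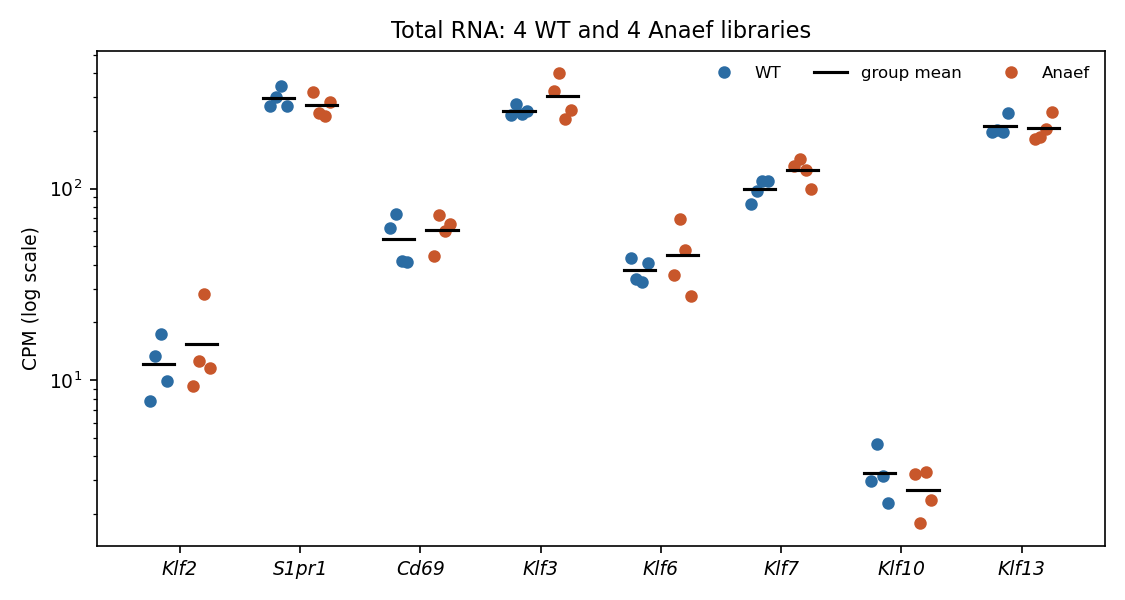
Total RNA level of the 8 genes in CPM (log axis), 1 point per library, 4 WT libraries in blue and 4 Anaef libraries in orange, with a bar at the group mean. The groups overlap for each gene, and the Klf2 library at 28.05 CPM (Anaef replicate 7) stands above the other 7.

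Among the other Klf genes, Klf3, the CtBP-recruiting repressor, had 243, 276, 244 and 253 CPM in WT and 325, 400.4, 230 and 257 CPM in Anaef total RNA. Anaef replicates 5 and 6 were above all WT libraries and replicates 7 and 8 were not. On the log2 scale Anaef was higher by 0.25 (SE 0.18, adjusted p = 0.940, edgeR).

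Klf7 had 83.5, 97.7, 109 and 109 CPM in WT and 131, 143, 125 and 99.1 CPM in Anaef. Anaef libraries 5, 6 and 7 exceeded every WT library and library 8 lay inside the WT range. The log2 fold change of 0.32 (SE 0.16) had an unadjusted p of 0.0673 and an adjusted p of 0.897 (edgeR).

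Its close relative Klf6, an immediate early gene in many cell types, had 43.5, 33.9, 32.4 and 40.7 CPM in WT and 35.6, 69.1, 47.9 and 27.4 CPM in Anaef. The Anaef libraries held both the highest and the lowest value, and their coefficient of variation was 40.3% against 14.2% in WT. Without Anaef replicate 6 the log2 fold change went from 0.26 to -0.03.

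Klf13 had 198, 202, 198 and 247 CPM in WT and 182, 187, 206 and 251 CPM in Anaef, a log2 fold change of -0.03 (SE 0.15). Klf10, the TGF-beta early gene, was the lowest, with 2.28 to 4.64 CPM in WT and 1.79 to 3.30 CPM in Anaef (log2 fold change -0.29, SE 0.38). WT and Anaef libraries overlapped for both genes.

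Per kilobase of exon, which allows genes to be compared, S1pr1 was the most abundant of the 8 in WT total RNA at 97.4 ± 11.3 CPM per kilobase (SD, n = 4). Klf13 followed at 28.03 ± 3.17 and Klf3 at 22.6 ± 1.36, and their libraries did not overlap. Klf7 was next at 12.3 ± 1.49. Klf6, Cd69 and Klf2 had 8.57 ± 1.22, 8.42 ± 2.43 and 6.57 ± 2.29 CPM per kilobase and overlapped one another, and Klf10 was last at 0.782 ± 0.237. The order depends on the length used. With the length of the transcript that has the longest coding sequence, a choice made after seeing the data, Klf3 stood above Klf13 (48.7 against 33.0 CPM per kilobase) and Cd69 stood beside Klf13 at 32.5. Anaef gave the same order as WT by exon length.

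The footprints ranked the genes in another way. Per kilobase of coding sequence, Klf2 was the highest of the 8 in WT at 508 ± 169 CPM per kilobase (SD, n = 2), although it was seventh of 8 in total RNA. S1pr1 had 289 ± 95.1 and Cd69 252 ± 0.709. The Klf2 pools lay above the S1pr1 pools, and those of S1pr1 spanned the Cd69 value. Klf3, Klf13 and Klf6 had 87.3 ± 8.67, 86.6 ± 23.3 and 73.6 ± 9.66, and the Klf13 pools overlapped those of both others. Klf7 and Klf10 were lowest, at 15.1 ± 0.831 and 14.2 ± 3.11, although Klf7 RNA was 15.7 times as abundant per kilobase as Klf10 RNA in WT. In Anaef, Klf2 again led at 616 ± 17.9 CPM per kilobase.

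**Figure D2:**
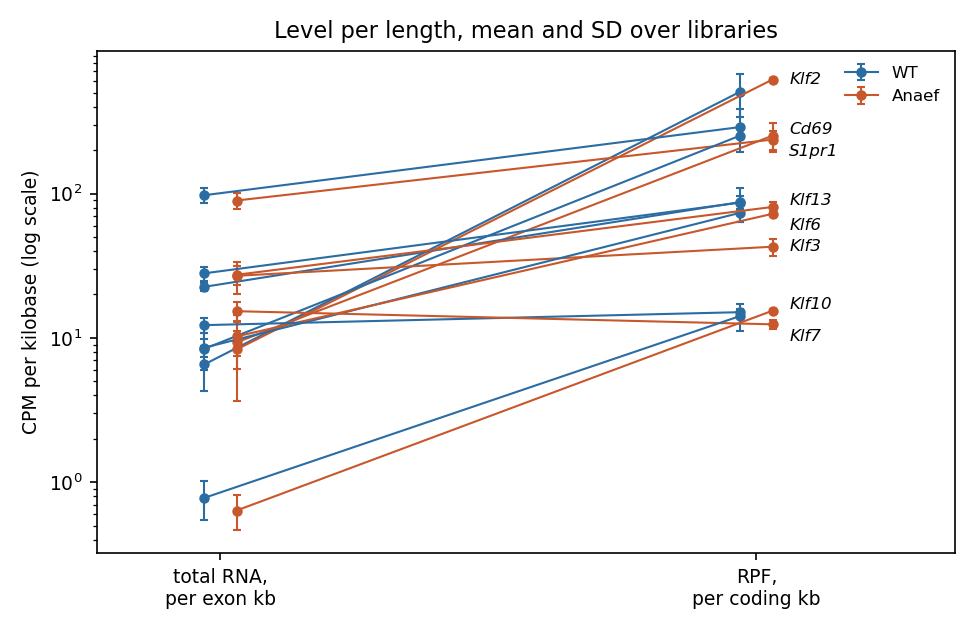
Level of each gene in CPM per kilobase (log axis), in total RNA per kilobase of exon (left) and in RPF per kilobase of coding sequence (right), as mean and SD over 4 and 2 libraries per genotype, WT in blue and Anaef in orange. In WT, Klf2 is at 6.57 on the left and 508 on the right, and Klf7 at 12.3 and 15.1. The 2 sides are scaled separately, so the slope of a line is not the fitted ratio. Per length, the fitted log2 ratio of RPF to total RNA in WT was 5.56 for Klf2 and -0.42 for Klf7.

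The ratio of RPF to total RNA compares the 2 assays within a genotype, and it was fitted on the 6 libraries of that genotype. The fit scales both assays together, while CPM are scaled within each assay, so the ratio of 2 CPM values differs from the fitted one. The direction can differ too. The median coding gene had a log2 ratio of -0.36 in WT (11909 genes) and -0.48 in Anaef (12021 genes). In WT 74% of all 17775 tested genes passed, 19.6% as higher in RPF and 54.4% as lower. Among the coding genes alone these shares were 26.4% and 39.4%. In Anaef 67.1% of 18032 genes passed, 16.4% as higher and 50.8% as lower, and among coding genes 21.6% and 36.3%. The assays also differed in their library kits, their cells (pools against small aliquots) and in the part of the transcript they read. Only the footprint cells had cycloheximide, and only the RPF counts were named as masked. None of these can be told apart from a difference in ribosome load.

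Klf2 had 413 and 666 CPM in the WT pools and 668 and 641 CPM in the Anaef pools, from 1836 to 2794 fragments per pool. All 4 pools were far above the highest total RNA library at 28.05 CPM. Its log2 ratio was 4.76 in WT (SE 0.35, adjusted p = 1.56e-05, edgeR), 27.1-fold, and 4.65 in Anaef (SE 0.41), 25.2-fold. Only 157 of 11909 coding genes had a higher ratio in WT, and 181 of 12021 in Anaef. The ratio in WT ranged from 4.37 to 5.06 when each library was left out in turn.

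Klf10 had the second highest ratio of the 8. It had 20.97 and 28.7 CPM in the WT pools and 26.4 and 27.6 CPM in the Anaef pools, all above its highest total RNA library of 4.64 CPM. Its log2 ratio was 2.20 in WT (SE 0.33, adjusted p = 0.000578, edgeR) and 2.58 in Anaef (SE 0.38), above 91.1% and 93.2% of coding genes. Klf10 total RNA rested on 40 to 213 reads per library, and its footprints on 79 to 142.

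Cd69 had 151 and 150.3 CPM in the WT pools and 174 and 126 CPM in the Anaef pools. The log2 ratio was 0.74 in WT (SE 0.26, adjusted p = 0.0313, edgeR) and 0.56 in Anaef (SE 0.25, adjusted p = 0.0734), at the 71.5 and 68.7 percentiles of coding genes before any account of length. The WT call was lost without WT total RNA replicate 4 (adjusted p = 0.0679), without pool 1B (0.124) and without pool 2B (0.118). The Anaef value passed with DESeq2 (0.0311), with RLE size factors (0.0359), with a mean of at least 50 counts (0.0283) and without Anaef total RNA replicate 6 (0.0447). Klf6 had 67.3 and 81.1 CPM in WT and 73.7 and 72.2 in Anaef pools, with log2 ratios of 0.26 (SE 0.20) and -0.05 (SE 0.36) that did not pass.

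S1pr1 had 254 and 408 CPM in the WT pools and 299.6 and 242 CPM in the Anaef pools. Its WT means were 331 CPM in RPF and 297 in total RNA, each scaled within its assay, so the fitted ratio had the other direction. Its log2 ratio was -0.56 in WT (SE 0.22, adjusted p = 0.0485, edgeR) and -0.76 in Anaef (SE 0.20, adjusted p = 0.0102), near the middle of the coding genes (46.2 and 45.0 percentiles). The WT call did not hold under 4 other settings (adjusted p up to 0.0868 with RLE size factors) or when any library but pool 2B was left out. The Anaef call was lost without pool 4B (adjusted p = 0.107). The receptor gene and its regulator Klf2 thus stood far apart on this measure, although S1pr1 RNA was 14.8 times as abundant per kilobase.

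Klf13 had 67.8 and 99.5 CPM in the WT pools and 73.7 and 82.3 CPM in the Anaef pools, below every total RNA library. Its log2 ratio was -2.06 in WT and -2.15 in Anaef (SE 0.22 in each). Klf3, with 90.1 and 104 CPM in WT pools, had -2.11 in WT (SE 0.16) and -3.42 in Anaef (SE 0.31). Klf7 had the lowest ratio, with 14.2 and 13.1 CPM in WT and 10.6 and 11.9 CPM in Anaef pools from 34 to 96 fragments. Its log2 ratio was -3.58 in WT (SE 0.22, adjusted p = 8.84e-06, edgeR), 12.0-fold lower, and -4.22 in Anaef (SE 0.27), and 10089 of 11909 and 10458 of 12021 coding genes lay above it. In all, 3 members passed as higher and 4 as lower in WT, and 2 and 4 in Anaef. Most genes pass this comparison: of all tested genes 19.6% were higher and 54.4% lower in WT, and 16.4% and 50.8% in Anaef.

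**Figure D3:**
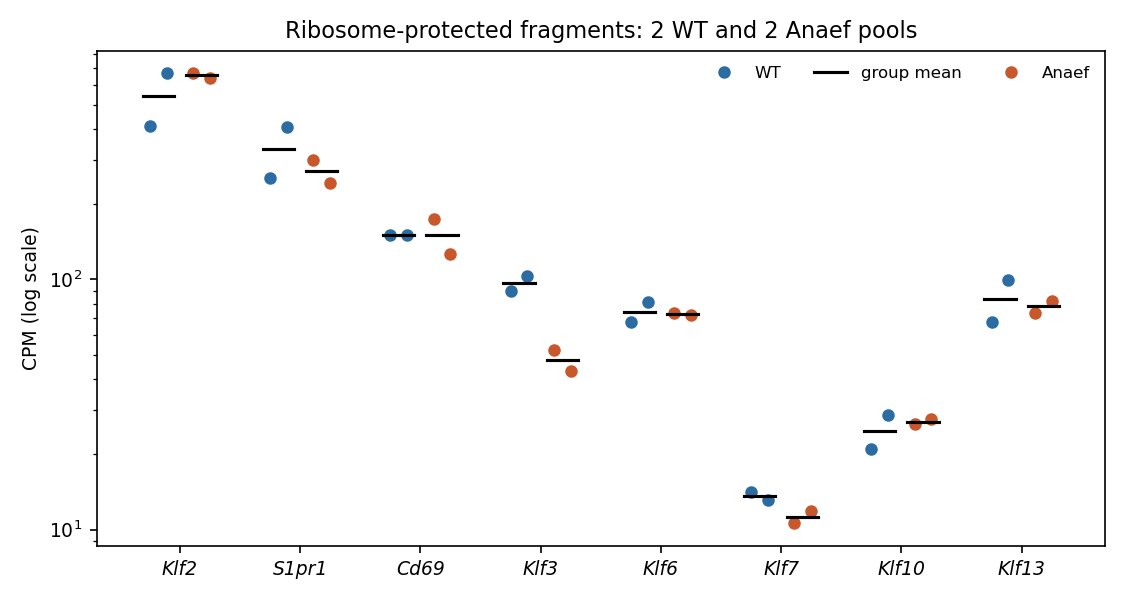
RPF level of the 8 genes in CPM (log axis), 1 point per pool, 2 WT pools in blue and 2 Anaef pools in orange, with a bar at the group mean. Klf2 is highest at 413 to 668 CPM, and Klf3 is the gene with the widest gap between genotypes, 90.1 and 104 against 52.2 and 42.9 CPM.

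The share of the transcript that is coding followed the same order at its ends. It was 57.5% in Klf2, 47.2% in Klf10, 37.6% in S1pr1, 35.4% in Cd69, 22.6% in Klf6, 19.8% in Klf3, 13.6% in Klf13 and 11.8% in Klf7. Total RNA reads can fall anywhere in a transcript while footprints fall mostly in the coding part. Across all coding genes Spearman's rho between the ratio and the coding share was 0.194 in WT and 0.212 in Anaef (11909 and 12021 genes, which share the libraries and are not replicates). Among the 2382 genes with the smallest share, which include Klf3, Klf6, Klf7 and Klf13, the median log2 ratio in WT was -1.43, with quartiles of -3.19 and 0.07. Klf6 lay above the upper quartile of these genes, Klf3 and Klf13 between the median and the lower quartile, and Klf7 below the lower quartile. Among the 2381 genes of middle share (47.1% to 61.6%), with Klf2 and Klf10, the median was -0.10 and the upper quartile 1.09, and both genes lay above it.

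Put on length, the members drew closer together but Klf2 stayed high. With the ratio taken per kilobase of exon and of coding sequence, rho with the coding share was -0.0256 in WT and -0.00245 in Anaef. On that scale Klf2 was at the 98.0 percentile of coding genes in WT, Cd69 at 93.9, Klf10 at 88.6, Klf6 at 72.9, Klf3 at 50.5, Klf13 at 44.5, S1pr1 at 43.5 and Klf7 at 25.4. Klf3 and Klf13, low per gene, were thus near the middle in WT, and Cd69 was among the high ones. In Anaef Klf2 was at 97.6, Cd69 at 92.4, Klf10 at 91.2, Klf6 at 68.3, Klf13 at 44.9, S1pr1 at 42.3, Klf3 at 30.9 and Klf7 at 20.96. Exon lengths of Cd69 and Klf3 include other annotated transcripts, and with the coding share of the transcript that has the longest coding sequence, a scale added after seeing the data, Cd69 was at 80.1, Klf6 at 82.7 and Klf3 at 42.2 in WT. On it Klf2, Klf10 and Klf7 were at 98.4, 91.6 and 31.0, and Klf13 and S1pr1 at 53.9 and 54.2.

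GC content followed another order. The coding sequence was 71.5% G or C in Klf13, 70.7% in Klf2, 56.0% in Klf7, 54.0% in Klf10, 53.9% in Klf3, 52.5% in S1pr1, 51.05% in Klf6 and 45.2% in Cd69. Klf13 and Klf2, alike in coding GC content, had ratios 4.16-fold below and 27.1-fold above even in WT. Over the whole transcript GC content was 55.5% in Klf13 and 61.6% in Klf2. The part of GC content in the ratios of these genes was not tested. Spearman's rho between ratio and coding GC content across genes was 0.0465 in WT.

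**Figure D4:**
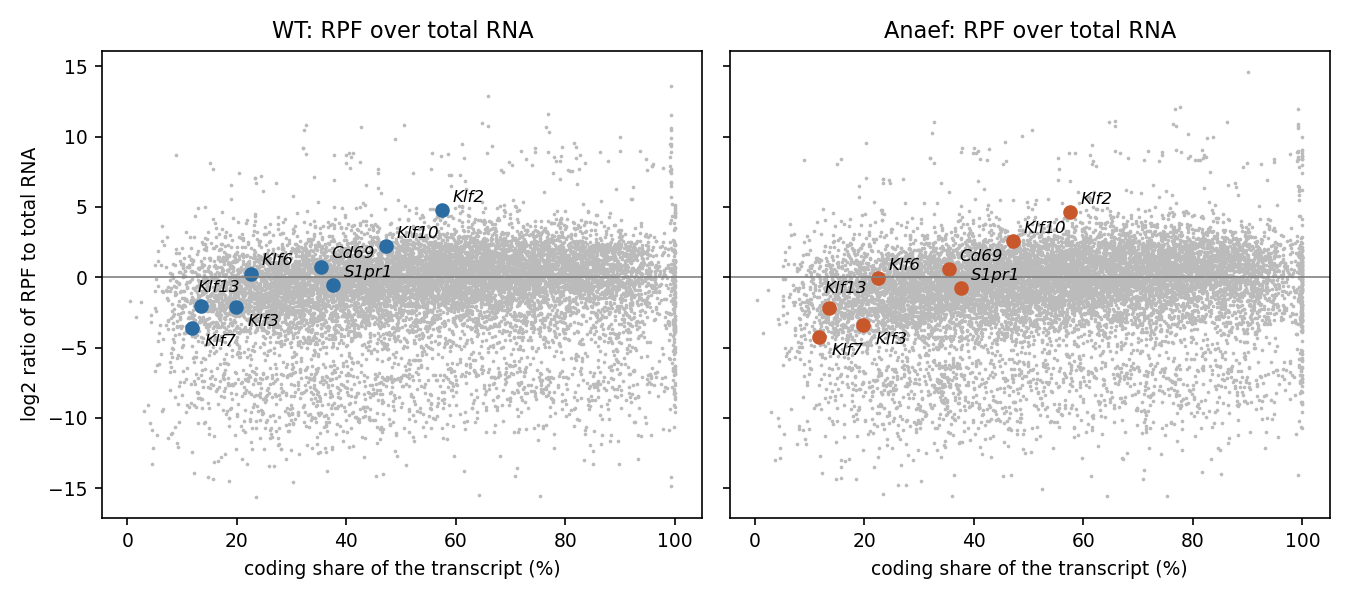
log2 ratio of RPF to total RNA against the coding share of the transcript in percent, for all tested coding genes (grey points) and the 8 genes (coloured points with names), in WT (left, 11909 genes) and Anaef (right, 12021 genes). Klf2 lies above most of the cloud at a coding share of 57.5%, and Klf7 at its left at 11.8% with log2 ratios of -3.58 and -4.22.

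Between genotypes, the footprints of one member stood out, those of Klf3. They were 90.1 and 104 CPM in the WT pools and 52.2 and 42.9 CPM in the Anaef pools, from 610 and 427 fragments against 182 and 123. Both Anaef pools were below both WT pools, as in 22.5% of the 9710 genes tested. On the fitted scale Klf3 was 2.03-fold lower. The log2 fold change was -1.02 (SE 0.18, 95% interval -1.46 to -0.59) with an unadjusted p of 0.000978 and an adjusted p of 0.344 (edgeR), so that it did not pass. No gene of the 9710 tested passed in RPF (0%), while 1151 had an unadjusted p under 0.05. With DESeq2 55 genes passed, Klf3 among them (log2 -1.03, adjusted p = 0.00864), and without a filter on low counts 514 passed, again with Klf3 (adjusted p = 0.000184). Klf3 did not pass with limma-voom (adjusted p = 0.352). In edgeR it did not pass with RLE size factors (adjusted p = 0.336) or a mean of at least 50 counts (0.335). Nor did it pass without mitochondrial, Ig and TCR genes (0.125) or in 1 fit on all 12 libraries. Without Anaef pool 3B, which leaves 1 Anaef pool, its log2 fold change was -1.17, and without pool 4B it was -0.90. Over its alternatives the fold change stayed between -1.17 and -0.90.

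Klf3 total RNA was not lower in Anaef, and the difference between the assays' fold changes was -1.29 (SE 0.30, 95% interval -1.95 to -0.63). This test of RPF relative to total RNA had an unadjusted p of 0.00107 and an adjusted p of 0.99998 (edgeR). None of 19031 genes passed it (0%), with 636 at an unadjusted p under 0.05, and DESeq2 called 10, not including Klf3 (adjusted p = 0.102). The B cell marker sum was also lower in both Anaef pools than in both WT pools (22.4 and 40.1 against 92.3 and 50.7 CPM), as was the plasma cell sum, and their part in the Klf3 value was not tested.

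Klf7 was the other member whose pools did not overlap, with both Anaef pools lower, where 44.8% of all genes did not overlap with 22.5% lower and 22.3% higher in both Anaef pools. Its log2 fold change in RPF was -0.29 (SE 0.26, adjusted p = 0.702, edgeR), and relative to total RNA it was -0.61 (SE 0.28, unadjusted p = 0.0509). The overlap with the opposite-strand gene named above holds for this value too.

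None of the egress genes passed between the genotypes in RPF. The log2 fold change was 0.28 for Klf2 (SE 0.22, 95% interval -0.26 to 0.81), -0.29 for S1pr1 (SE 0.24, interval -0.86 to 0.29) and -0.00 for Cd69 (SE 0.19, interval -0.45 to 0.44). For Klf2, WT pool 1B was the low one and the other 3 pools lay between 641 and 668 CPM. For S1pr1, WT pool 2B was the high one. Leaving out pool 1B gave -0.04 for Klf2, and leaving out pool 2B gave 0.09 for S1pr1, so each direction rested on 1 WT pool.

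Klf6, Klf10 and Klf13 had log2 fold changes in RPF of -0.02 (SE 0.17), 0.13 (SE 0.22) and -0.10 (SE 0.22). For each of the 3, both Anaef pools lay between the 2 WT pools. Relative to total RNA, the values of the 6 members other than Klf3 and Klf7 lay between -0.29 and 0.41, with SE of 0.28 to 0.59.

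**Figure D5:**
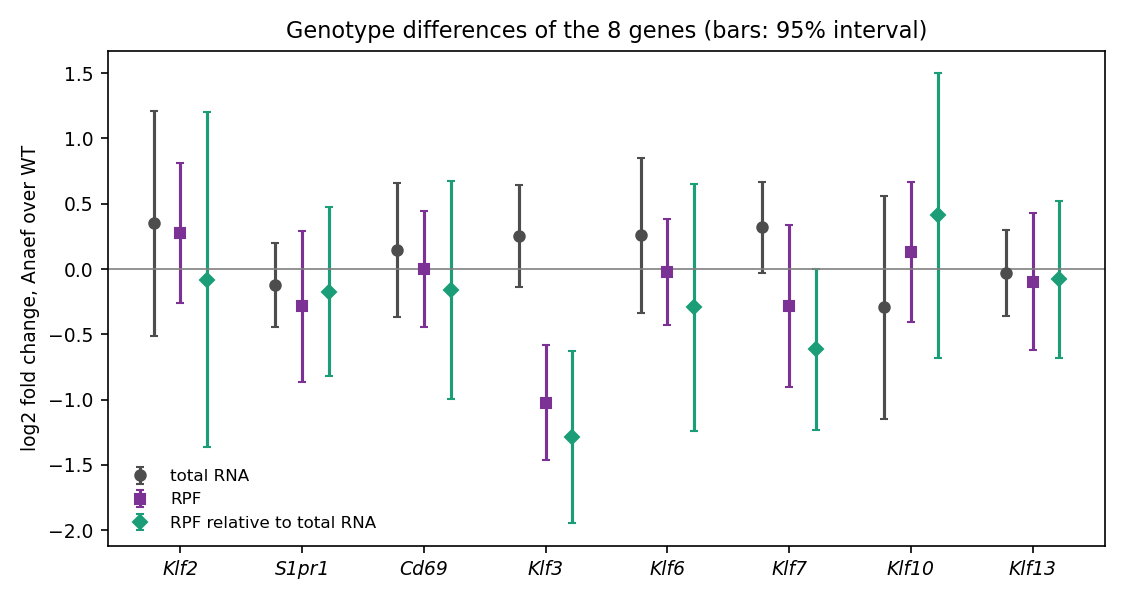
log2 fold change of Anaef over WT for the 8 genes in total RNA (grey circles), RPF (purple squares) and RPF relative to total RNA (green diamonds), with 95% intervals of the edgeR fits. The Klf3 intervals of RPF (-1.46 to -0.59) and of RPF relative to total RNA (-1.95 to -0.63) lie below 0, and the others reach 0.

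The genes around these members were read from fixed lists, and in the 3 genotype comparisons none of their members passed. In total RNA 15 of 16 genes for lymph node entry and retention were tested, 5 higher and 10 lower with a median log2 of -0.04, where all genes had 0.01. Those with the smallest p were Itgb2, a chain of the LFA-1 integrin (0.44, SE 0.16), the chemokine receptor gene Cxcr4 (-0.78, SE 0.29) and Itgal, the partner chain of Itgb2 (0.22, SE 0.11), with adjusted p of 0.840 to 0.908. In RPF 6 of 14 were higher and 8 lower (median -0.09). Il7r, the interleukin 7 receptor gene, had -0.53 (SE 0.15) and Il6ra, the interleukin 6 receptor gene, -0.49 (SE 0.14), both with an adjusted p of 0.344.

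Within WT, 6 of 15 entry and retention genes passed as higher in RPF over total RNA and 4 as lower (median log2 0.21). In WT 19.6% of all tested genes passed as higher and 54.4% as lower (26.4% and 39.4% of coding genes). Cxcr4 had 3.08 (SE 0.28, adjusted p = 4.2e-05, edgeR), Itgb7, a chain of the gut-homing integrin, 2.33 (SE 0.14), and Slfn2, a quiescence gene, 1.98 (SE 0.17). Itgb2 went the other way at -1.56 (SE 0.14). In Anaef 6 passed in each direction, where 16.4% of all tested genes passed as higher and 50.8% as lower. Cxcr4 had 3.41 (SE 0.29), Itgb7 2.38 (SE 0.23), Slfn2 2.11 (SE 0.23) and Ccr7, the receptor for entry, 1.68 (SE 0.16) there.

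Of 16 upstream regulators of Klf2, 8 were higher and 8 lower in Anaef total RNA (median -0.02). Foxo1, the activator of Klf2, had 0.39 (SE 0.14), Mef2a 0.44 (SE 0.21) and the kinase gene Akt1 -0.61 (SE 0.34), with adjusted p of 0.840 to 0.913. In RPF Mef2c had -2.69 (SE 0.82), Mef2d -0.49 (SE 0.18) and Hdac7 0.41 (SE 0.18), with 5 of 14 higher (median -0.16) and adjusted p of 0.344 to 0.429. Mef2c is also a B cell gene, at 3.15 and 0.430 CPM on average in the WT and Anaef pools. In WT 10 of the 16 passed as lower and 1 as higher in RPF over total RNA (median -0.68). Of all tested genes 54.4% passed as lower and 19.6% as higher there. The list members that passed included Mef2a at -6.17 (SE 0.41), Mef2d at -3.06 (SE 0.25) and Hdac5 at -7.04 (SE 0.96). The ubiquitin ligase gene Wwp1 also passed, at -2.30 (SE 0.33). Hdac5 had only 4 fragments in all pools together and Mef2a 20, against 3363 and 12881 total RNA reads. In Anaef 8 passed as lower and none as higher, where 50.8% and 16.4% of all tested genes did. Mef2a had -5.94 (SE 0.52), Mef2d -3.48 (SE 0.24), Wwp1 -2.69 (SE 0.38) and Fbxw7, which marks KLF2 for degradation, -2.45 (SE 0.32).

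Of the 20 genes for sphingosine 1-phosphate receptors, enzymes, transporters and signalling, 15 were tested in total RNA, 6 higher and 9 lower in Anaef (median -0.09). Arrb1, an arrestin gene, had -0.39 (SE 0.21). In RPF 2 of 11 were higher and 9 lower (median -0.20). Gnai2, the G protein that couples S1PR1, had -0.55 (SE 0.15, adjusted p = 0.344, edgeR), Arrb1 -0.46 (SE 0.19) and Arrb2 -0.48 (SE 0.22). In WT 10 of 15 passed as lower in RPF over total RNA and 2 as higher (median -1.08). The same counts held in Anaef (median -1.16). Of all tested genes 54.4% passed as lower and 19.6% as higher in WT, and 50.8% and 16.4% in Anaef. Sphk1, which makes sphingosine 1-phosphate, and Mfsd2b, which exports it, had 0 fragments in all 4 pools. They had 1787 and 1775 total RNA reads over the 8 libraries. Next in WT were Arrb1 at -1.60 (SE 0.21) and Sgpp2 at -4.06 (SE 0.61, from 5 fragments), and in Anaef Sgpp1 at -1.59 (SE 0.25) and Arrb2 at -1.52 (SE 0.24). The deposited RPF counts were masked in a way that the sources do not describe, so that a 0 can be a masked gene. A low count can likewise be that of a partly masked gene.

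Among 20 other Klf and Sp genes, 10 were tested in total RNA, 5 higher and 5 lower in Anaef (median 0.01), and 7 in RPF, 3 higher and 4 lower (median -0.19). Sp4 had 0.37 (SE 0.20) in total RNA and Sp2 -0.40 (SE 0.17) in RPF. Klf1, Klf4, Klf5, Klf12, Klf14, Klf15 and Klf17 had at most 55 total RNA reads over the 8 libraries. In WT 2 of 11 passed as higher in RPF over total RNA and 3 as lower (median 0.11), led by Sp3 at 0.93 (SE 0.17), Sp9 at -4.66 (SE 1.06), Klf9 at -3.29 (SE 0.82) and Klf8 at -2.88 (SE 1.06). Sp9, Klf9 and Klf8 had 2, 7 and 3 fragments in all. In Anaef Klf16 at 2.10 (SE 0.55) and Sp3 at 0.73 (SE 0.19) passed as higher and none passed as lower. The shares of all tested genes were 19.6% higher and 54.4% lower in WT, and 16.4% and 50.8% in Anaef.

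Of 14 partners of KLF3, KLF10 and KLF13, 13 were tested in total RNA, 7 higher and 6 lower (median 0.06). Nlk, a kinase gene, had 0.58 (SE 0.19, adjusted p = 0.778, edgeR) and Ccl5, the chemokine gene that KLF13 activates, -1.67 (SE 0.64) at 1.81 and 0.560 CPM on average. In RPF the TGF-beta receptor genes Tgfbr2 and Tgfbr1 had -0.55 (SE 0.16) and -0.62 (SE 0.24), and Smad2 -0.43 (SE 0.17), with 6 of 12 higher in all (median 0.01). In WT 2 of 13 passed as higher in RPF over total RNA (Sin3b at 1.96, SE 0.21) and 4 as lower, Nlk at -4.05 (SE 0.23) and the KLF3 corepressor gene Ctbp1 at -3.38 (SE 0.39) among them, with Tgif1 at -3.03 (SE 0.39). In Anaef 1 passed as higher, Sin3b at 2.17 (SE 0.31), and 6 as lower. The lower ones included Nlk at -4.87 (SE 0.33), Ctbp1 at -3.13 (SE 0.46) and Prpf4b at -0.59 (SE 0.18). The shares of all tested genes were again 19.6% higher and 54.4% lower in WT, and 16.4% and 50.8% in Anaef.

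The genes whose total RNA went most alike with the egress genes over the 8 libraries were found among 6483 coding genes of at least 10 CPM. For Klf2 these were Rnf166 (Pearson's r 0.936), Tmem181a (0.919) and Ubap1 (0.899). For S1pr1 they were Lsm12 (0.953), P2ry10b (0.948) and Cdipt (0.946), and for Cd69 Serinc3 (0.952), Snx2 (0.927) and Vmp1 (0.927). They are the highest of 6483 values over only 8 libraries, and none of the 3 members was among the nearest of another.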

How the data were processed

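The table deposited by the authors held raw counts for each gene, and the RPF columns were named as masked, per the labels. TopHat 1.4.1 and build GRCm38 are listed, per the submitters' processing notes. Counting tool, strand setting and mask: not given in the sources used here. Of 45669 rows, 44595 single gene IDs matched GENCODE M21, 811 did not and 263 joined several IDs. All per-sample columns were used.

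Counts were tested in R 4.3.3 with edgeR 4.0.16 (quasi-likelihood F test, TMM, filterByExpr, Benjamini-Hochberg at 0.05 over all tested genes), on 8 libraries for total RNA, 4 for RPF, 12 for RPF relative to total RNA (interaction) and 6 for the ratio within a genotype. SE came from the F statistic. The fits were tested on simulated data. Library CPM use the scaled size of that assay alone. Other settings tried were RLE size factors, DESeq2 1.42.0, limma-voom (limma 3.58.1), no filter, a filter at 50 mean counts, leaving out mitochondrial, Ig and TCR genes, 1 fit on 12 libraries, leaving out each library, and other lengths.

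Members and lists were chosen with earlier results of these data known. From each list, members that passed (at most 4, by p) or else up to 3 by smallest p were named, and for egress genes the 3 with the highest Pearson correlation of log2 CPM (prior count 2). Coding lengths, shares and start sites came from GENCODE M21. Intervals are 95%. 1 member that this rule names is not reported here.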

Additional observations from a re-analysis of the deposited data

Results flagged for a closer look

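Klf13 total RNA in WT replicate 4 was 246.8 CPM, against 198, 202 and 198 CPM in the other WT libraries, a gap that took up most of the range of the group and exceeded Dixon's 95% critical value for 4 samples. It was 1 of 16 groups of 4 that were checked, and chance flags about 1 in 20 groups. The highest Anaef library, replicate 8, had 251 CPM. Without WT replicate 4 the log2 fold change of Klf13 was 0.05 in place of -0.03.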

How the results depend on the processing

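Of 560 values of the 8 genes under other settings, 515 kept their direction and their side of the threshold, 13 lost a call, 7 gained one and 25 changed sign. The sign changes were of values that had not passed. Most came from leaving out 1 library. In total RNA the range over left-out libraries was -0.12 to 0.57 for Klf2, -0.0253 to 0.4356 for Klf6 and -0.1407 to 0.0504 for Klf13. In RPF it was -0.0383 to 0.6629 for Klf2, -0.10 to 0.36 for Klf10, -0.16 to 0.11 for Klf6, -0.36 to 0.20 for Klf13, -0.602 to 0.0924 for S1pr1 and -0.25 to 0.20 for Cd69. For RPF relative to total RNA it was -0.42 to 0.37 for Klf2, -0.36 to 0.21 for Klf13, -0.50 to 0.19 for S1pr1 and -0.4301 to 0.0272 for Cd69. The Anaef ratio of Klf6 ranged from -0.23 to 0.21, and was 0.0648 with DESeq2, 0.0652 with RLE size factors, 0.0769 with a mean of at least 50 counts and 0.0299 with limma-voom. Cd69 in RPF was 0.0006 with a mean of at least 50 counts.

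The number of genes that passed moved far more. In total RNA it was 4, and 168 with DESeq2, 2 with limma-voom, 0 without mitochondrial, Ig and TCR genes and 0 to 3 without 1 library (0 without Anaef 5, 7 or 8). In RPF it was 0, and 55 with DESeq2, 514 with no filter on low counts, 6 without mitochondrial, Ig and TCR genes and 0 to 211 without 1 pool (211 without 3B, 14 without 4B). For RPF relative to total RNA it was 0, and 10 with DESeq2 and 0 to 1 without 1 library. For the Anaef ratio it was 12106, and 7909 with limma-voom. The cause was not tested. A lone pool left in a group was assumed to vary like the other groups. No paired analysis was possible because the groups share no replicate number and the sources used here do not give pool membership. Depth was lowest for Klf7, with 34 to 96 fragments per RPF pool, and for Klf10, with 79 to 142. Levels and ratios per length depended on the length used, as given with them.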

Other observations

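Short motifs in the 3′ untranslated part were counted on the sense strand of the same transcripts, as a description with no test. TATTTAT, which contains ATTTA, stood once in Klf2, Klf7, Klf10 and Cd69 and 2 times in Klf6, and in none of Klf3, Klf13 and S1pr1. It is present in 26.15% of 19297 mouse 3′ untranslated parts and ATTTA in 63.33%. These shares take no account of length, which ran from 737 bases in Klf2 to 6266 in Klf7. Per kilobase, ATTTA was denser than in 39.44% (Klf13) to 76.55% (Klf7) of these parts, with Klf2 at 52.93%. The genes with TATTTAT held both the highest (Klf2) and the lowest (Klf7) ratio of RPF to total RNA.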
